A study of Caenorhabditis elegans with 15 samples.

Results

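The transcriptional regulators of fat metabolism examined here are a set of 9 listed genes of the nematode Caenorhabditis elegans, chosen by name: nhr-49, nhr-80, nhr-13, nhr-66, sbp-1, mdt-15, hlh-30, mxl-2 and mml-1. A gene was taken where the annotation column of the deposited gene table named it, and 8 of the 9 were found, each in a single row, among the 16196 genes of that table. nhr-49 was not analysed here. The measurements were read counts per gene and FPKM (a fragment level scaled to gene length and to library size) from RNA sequencing of whole bodies of wild type nematodes at the fourth larval stage.

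There were 5 groups of 3 libraries, all fed Escherichia coli and all of the same genotype. The control group received no addition. The sucrose group (suc) received 400 mM sucrose, and the stearic acid group (ste) received stearic acid at 500 μg/mL, a dose whose unit the sample labels write as mg/ml. The sucrose-stearic acid group (suc-ste) received both, and the resveratrol group (suc-ste-res) received both together with resveratrol at 500 in the same units. The total count per library ranged from 19433436 to 21400063, with a median of 20319650. Stearic acid was dissolved in ethanol and resveratrol in dimethyl sulfoxide, and a control with solvent alone was not given in the sources used here, so each compound and its solvent cannot be told apart.

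SBP-1 is the nematode form of SREBP, the factor that drives the genes of fatty acid synthesis and desaturation, and MDT-15 is the subunit of the Mediator complex through which SBP-1 and several nuclear receptors reach RNA polymerase. NHR-80, NHR-13 and NHR-66 are nuclear hormone receptors of the HNF4-related kind that bind the receptor NHR-49, and the NHR-80 pairing is known for the stearoyl-CoA desaturase genes. HLH-30 is the nematode TFEB, which turns on autophagy and lysosomal lipase genes in fasting. MML-1 is the Mondo factor, related to the sugar-responsive ChREBP of mammals, and MXL-2 is the Mlx partner with which it binds DNA. The nematode intestine serves as gut, liver and fat store, and most of these factors are studied there.

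The members differed widely in level per length. Averaged over the 15 libraries, mdt-15 stood at 266 FPKM, above 94.6% of the genes in the table. mxl-2 followed at 88.5 FPKM, hlh-30 at 78.9 FPKM and nhr-66 at 46.7 FPKM. The length implied by counts over FPKM was 299 to 387 bases for mxl-2, whose annotated transcript has 698. For hlh-30 it was 2600 to 3200 bases, and its longest annotated transcript has 2583. The order of mxl-2 and hlh-30 therefore depends on the length used. mml-1 and sbp-1 had similar levels of 29.9 and 29.1 FPKM. The receptors nhr-80 and nhr-13 were the lowest members, at 14.4 and 9.73 FPKM, close to the middle of the table. The spread between the highest and the lowest library was widest for mml-1, at 2.52-fold, and sbp-1, at 2.43-fold, and it was 1.23-fold for mdt-15.

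**Figure D1:**
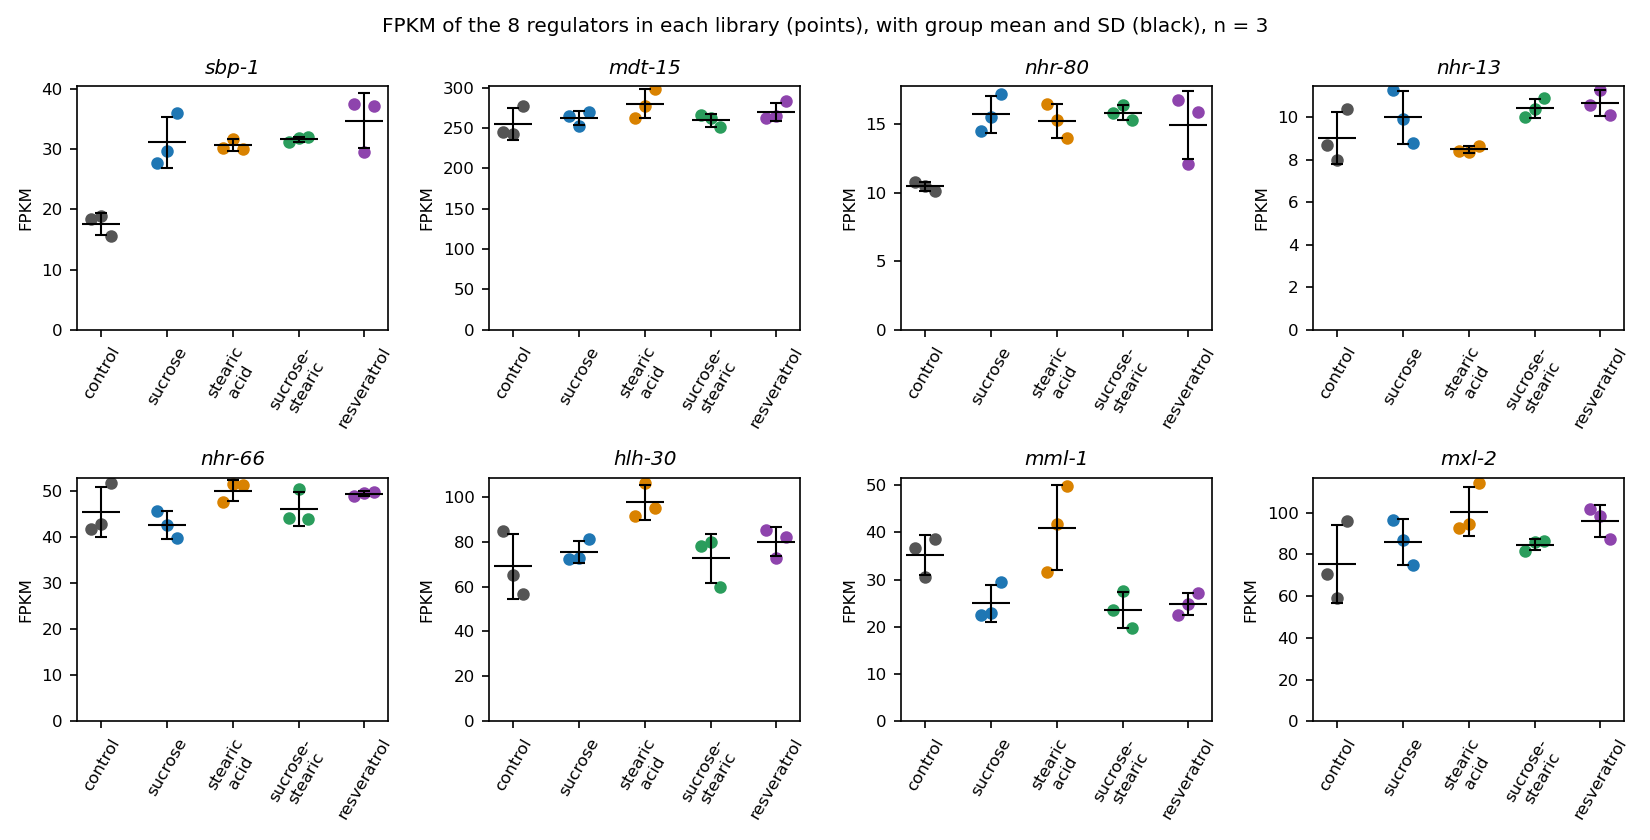
FPKM of the 8 members (y axis, from 0) in each of the 15 libraries (points), grouped by treatment on the x axis, with the mean and SD of each group of 3 in black. All treated libraries lay above the control libraries for sbp-1 and nhr-80, the ste libraries lay above all others for hlh-30, and the control libraries lay above the suc, suc-ste and suc-ste-res libraries for mml-1.

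Each comparison was fitted with edgeR across all genes that passed a filter on low counts, and a gene was called where its Benjamini-Hochberg adjusted p was 0.05 or less. All 8 members passed the filter in every comparison. Against control, 2 of 8 members were called after sucrose, where 18.4% of all tested genes were called. After stearic acid 3 of 8 were called, against 22.6% of all genes. In the sucrose-stearic acid group 3 of 8 were called, against 19.9%, and in the resveratrol group 2 of 8 were called, against 17.7%. Members called higher numbered 2, 3, 2 and 1, where 9.63%, 11.6%, 11% and 9.24% of all genes were called higher. Members called lower numbered 0, 0, 1 and 1, where 8.78%, 11%, 8.89% and 8.48% were called lower. A share of 8 members moves by a large step with each gene, so these shares do not set the members apart from the background. No member changed by 2-fold or more in a comparison with control. Of all tested genes, 9.18% were both called and changed at least 2-fold after sucrose and 7.88% after stearic acid. The share was 9.57% in the sucrose-stearic acid group and 9.26% in the resveratrol group. With only 8 members, this does not set them apart from the background either. The median log2 fold change of the 8 members was 0.15, 0.30, 0.06 and 0.17 in these comparisons, and the median of all tested genes lay between -0.04 and -0.02. All 4 comparisons used the same 3 control libraries.

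**Figure D2:**
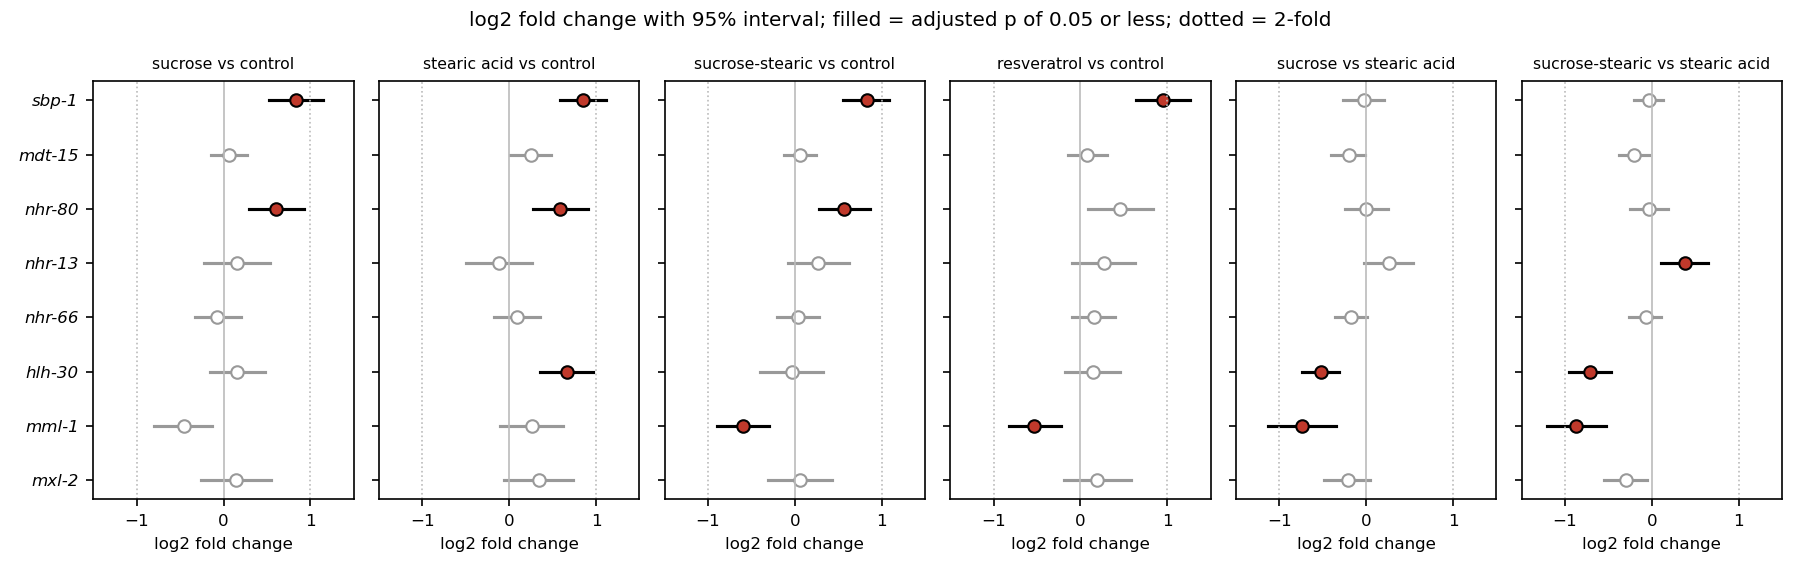
log2 fold change of the 8 members (points) with its 95% interval (lines) in 6 comparisons, from the edgeR fit of each comparison. Points are filled where the adjusted p was at most 0.05, and dotted lines mark 2-fold. sbp-1 was filled in all 4 comparisons with control, while nhr-66, mdt-15 and mxl-2 were filled in none.

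sbp-1 was the only member called in all 4 comparisons with control. Its control libraries stood at 18.4, 18.9 and 15.5 FPKM. The sucrose libraries stood at 27.7, 29.6 and 35.9 FPKM and the stearic acid libraries at 30.2, 31.7 and 29.9 FPKM. The sucrose-stearic acid libraries stood at 31.1, 31.8 and 31.9 FPKM and the resveratrol libraries at 37.5, 29.4 and 37.1 FPKM. Thus every treated library exceeded every control library, and the treated groups overlapped each other. The log2 fold change was 0.84 ± 0.142 (SE, edgeR adjusted p = 0.00336) after sucrose and 0.85 ± 0.123 (edgeR adjusted p = 0.000519) after stearic acid. It was 0.83 ± 0.119 (edgeR adjusted p = 0.00103) in the sucrose-stearic acid group and 0.95 ± 0.14 (edgeR adjusted p = 0.000964) in the resveratrol group. These values correspond to 1.78-, 1.80-, 1.77- and 1.93-fold higher expression. The calls held under every alternative tried, including each left-out library.

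sbp-1 did not separate the treatments from each other. Sucrose against stearic acid gave a log2 fold change of -0.03, with a 95% interval from -0.27 to 0.21. Adding stearic acid to sucrose gave -0.01 (interval -0.24 to 0.22), and adding sucrose to stearic acid gave -0.03 (interval -0.20 to 0.13). Adding resveratrol gave 0.14 (interval -0.08 to 0.35). The intervals leave room for differences between -0.27 and 0.35 on the log2 scale.

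nhr-80, like sbp-1, had control below every treated group, with smaller changes. Its control libraries stood at 10.8, 10.5 and 10.1 FPKM. The sucrose libraries stood at 14.5, 15.5 and 17.2 FPKM, and the stearic acid libraries at 16.5, 15.3 and 14 FPKM. The sucrose-stearic acid libraries stood at 15.8, 16.4 and 15.3 FPKM, and the resveratrol libraries at 16.8, 12.1 and 15.9 FPKM. No treated library fell within the control range, though the second resveratrol library came near it. The log2 fold change was 0.61 ± 0.143 (SE, edgeR adjusted p = 0.0168) after sucrose, 0.59 ± 0.146 (adjusted p = 0.0146) after stearic acid and 0.57 ± 0.131 (adjusted p = 0.0133) in the sucrose-stearic acid group. In the resveratrol group it was 0.46 ± 0.168, and the edgeR adjusted p of 0.0926 did not pass.

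The nhr-80 calls depended on single libraries and, outside the sucrose-stearic acid group, on the fit. After sucrose the edgeR adjusted p became 0.0522 without the second control library, and 0.0789 and 0.0744 without the second and the third sucrose library. After stearic acid it became 0.0709, 0.0524 and 0.0564 without the first, the second and the third stearic acid library. In the sucrose-stearic acid group it became 0.0748 and 0.0669 without the first and the second treated library, while in the resveratrol group it became 0.0323 without the second resveratrol library. Over these left-out libraries the log2 fold change stayed between 0.52 and 0.63. With limma the call after stearic acid was lost on log2(FPKM + 1) and log2(FPKM + 0.1) values (adjusted p = 0.0571 and 0.0522), and in the edgeR fit of all 15 libraries the resveratrol group passed (adjusted p = 0.014). The call after sucrose was lost in an edgeR fit with replicate number as a block (adjusted p = 0.0843). Over the 15 libraries the log2 levels of nhr-80 and sbp-1 had a Pearson correlation of 0.907, and of 0.816 after removing the group means. The correlations are a description of libraries that share groups and scaling.

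The summed level of intestine markers, like sbp-1 and nhr-80, was higher in every treated library than in control, but single markers differed. The summed FPKM of 9 measured intestine markers ranged from 2150 to 2430 in control, from 3030 to 3180 after sucrose and from 2930 to 3060 after stearic acid. The sucrose-stearic acid libraries gave sums of 2490 to 2870, and the resveratrol libraries gave 2930 to 3200. No marker was at 0 in all libraries of a group. Of the 8 markers tested, 3, 4, 3 and 3 were called higher in the comparisons of these groups with control, and 1 was called lower in each. Of all tested genes, 9.63%, 11.6%, 11% and 9.24% were called higher there, and 8.78%, 11%, 8.89% and 8.48% lower. The markers did not move as a block. After sucrose vit-2, ges-1 and vit-6 rose by 1.54, 1.30 and 0.84 on the log2 scale (edgeR adjusted p = 0.000167, 0.00114 and 0.00242). Uncalled were elt-7 at 0.54, ifb-2 at 0.33, elt-2 at -0.02 and asp-3 at -0.06. The peptide transporter gene pept-1 fell by 1.41 (adjusted p = 0.00267) and was called lower in each comparison with control. With both compounds against sucrose alone, the yolk gene vit-6 was lower by -0.92 (edgeR adjusted p = 0.00858), where sbp-1 stood at -0.01. In whole worms, more cells of a type and more RNA per cell cannot be told apart.

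Germline markers were also measured, and those called were lower than in control. The summed FPKM of 13 germline and oocyte markers ranged from 2350 to 4070 in control, 1630 to 2580 after sucrose, 1890 to 2180 after stearic acid, 1700 to 2100 with both compounds and 1590 to 2540 with resveratrol added. Of the 13 genes, 4 were called lower after stearic acid and 4 with both compounds, none after sucrose or with resveratrol added, and none was called higher. The list medians were -0.48, -0.53, -0.51 and -0.41 on the log2 scale. Of 9 sperm markers, 6, 4, 2 and 0 were called lower in the comparisons of these groups with control. Among all tested genes 8.78%, 11%, 8.89% and 8.48% were called lower in these comparisons. The summed FPKM of the sperm markers ranged from 203 to 579 in control, 137 to 239 after sucrose and 336 to 1280 after stearic acid. It ranged from 330 to 624 with both compounds and from 308 to 701 with resveratrol added. The mean sperm sum was 717 after stearic acid, 512 with both compounds and 452 with resveratrol added, above 341 in control, though ranges overlapped. The sperm list medians there were -0.61, -0.36 and -0.36 on the log2 scale, so sums and single genes went different ways. No gene of either list was at 0 in all libraries of a group. The part of intestinal and germline RNA in the sbp-1 and nhr-80 results was not tested.

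Most genes on the list that SBP-1 and MDT-15 are known to drive were called higher in every treated group. Of 18 measured targets, 12 were called higher and 1 lower after sucrose, 13 and 1 after stearic acid, 12 and 1 in the sucrose-stearic acid group and 11 and 1 in the resveratrol group. In these comparisons 9.63%, 11.6%, 11% and 9.24% of all tested genes were called higher. This list and the other gene lists were chosen with earlier results of these data known. Their counts are therefore a description. The median log2 fold change of the list was 1.09, 0.93, 1.00 and 0.95, beside all-gene medians of -0.02, -0.03, -0.03 and -0.04. The elongase genes elo-5 and elo-6, which act on branched-chain fatty acids, rose by 2.09 ± 0.105 and 2.37 ± 0.137 (SE) after sucrose on the log2 scale, with edgeR adjusted p of 7.02e-06 and 1.46e-05. They rose by 1.55 ± 0.123 and 1.79 ± 0.149 after stearic acid, with adjusted p of 3.72e-06 and 5.92e-06. The desaturase gene fat-3 rose by 1.45 after sucrose and by 1.56 with both compounds (edgeR adjusted p = 0.00122 and 5.2e-06). The ATP-citrate lyase gene acly-1 was called after stearic acid at 0.95 ± 0.104 (edgeR adjusted p = 5.99e-05), and stood at -0.02 after sucrose.

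The stearoyl-CoA and palmitoyl-CoA desaturase genes, which NHR-80 and SBP-1 share as targets, went different ways. fat-5, for the palmitoyl-CoA desaturase, stood at 21.5 ± 7.04 FPKM (SD, n = 3) in control, 61.8 ± 11.1 after sucrose, 121 ± 8.05 after stearic acid, 69.5 ± 11.4 in the sucrose-stearic acid group and 67.3 ± 28.2 in the resveratrol group. It was higher than control in all 4 comparisons, with log2 fold changes of 1.54, 2.58, 1.61 and 1.56 (edgeR adjusted p = 0.00329, 9.78e-06, 0.00216 and 0.00661). fat-6, for a stearoyl-CoA desaturase, stood at 574 ± 70.0 FPKM in control, 369 ± 64.3 after sucrose, 734 ± 89.6 after stearic acid, 305 ± 13 in the sucrose-stearic acid group and 292 ± 45.7 in the resveratrol group (SD, n = 3). It was called lower wherever sucrose was given, by -0.65, -0.96 and -1.07 (edgeR adjusted p = 0.00704, 0.000173 and 0.00046), and stood at 0.33 after stearic acid (adjusted p = 0.069). fat-7, its close relative, was called lower only after stearic acid, at -1.36 ± 0.382 (edgeR adjusted p = 0.0253). The sequences of fat-6 and fat-7 are alike and the counting of shared reads is not given in the sources used here, so the split between them is uncertain.

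Of 14 tested targets of NHR-49 and NHR-80, which include the same 3 desaturase genes, 7, 7, 8 and 7 were called higher after sucrose, after stearic acid, in the sucrose-stearic acid group and in the resveratrol group, and 2 were called lower in each. Of all tested genes, 9.63%, 11.6%, 11% and 9.24% were called higher in these comparisons, and 8.78%, 11%, 8.89% and 8.48% lower. The median log2 fold changes of the 14 targets were 0.59, 0.43, 0.56 and 0.34. hacd-1, for a hydroxyacyl-CoA dehydrogenase of fatty acid oxidation, stood at 28.7 ± 3.53 FPKM in control and at between 416 and 641 after sucrose, 565 ± 57.5 after stearic acid and 618 ± 28.8 in the sucrose-stearic acid group (SD, n = 3). Its log2 fold changes were 4.21, 4.31 and 4.43, with edgeR adjusted p of 4.69e-06, 3.84e-09 and 1.53e-07. acs-2, for an acyl-CoA synthetase of the same pathway, rose by 4.16 ± 0.272 (SE) and 4.10 ± 0.22 after sucrose and stearic acid (edgeR adjusted p = 1.93e-05 and 1.89e-07). Its FPKM rose less than its counts, from 191 ± 53.9 to 819 ± 153 and 771 ± 32.2 (SD, n = 3), so the size of its change depends on the unit. fmo-2, for a flavin-containing monooxygenase that NHR-49 induces, rose by 6.23 ± 0.342 after sucrose and by 2.87 ± 0.205 after stearic acid (edgeR adjusted p = 1.11e-05 and 1.72e-06).

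**Figure D3:**
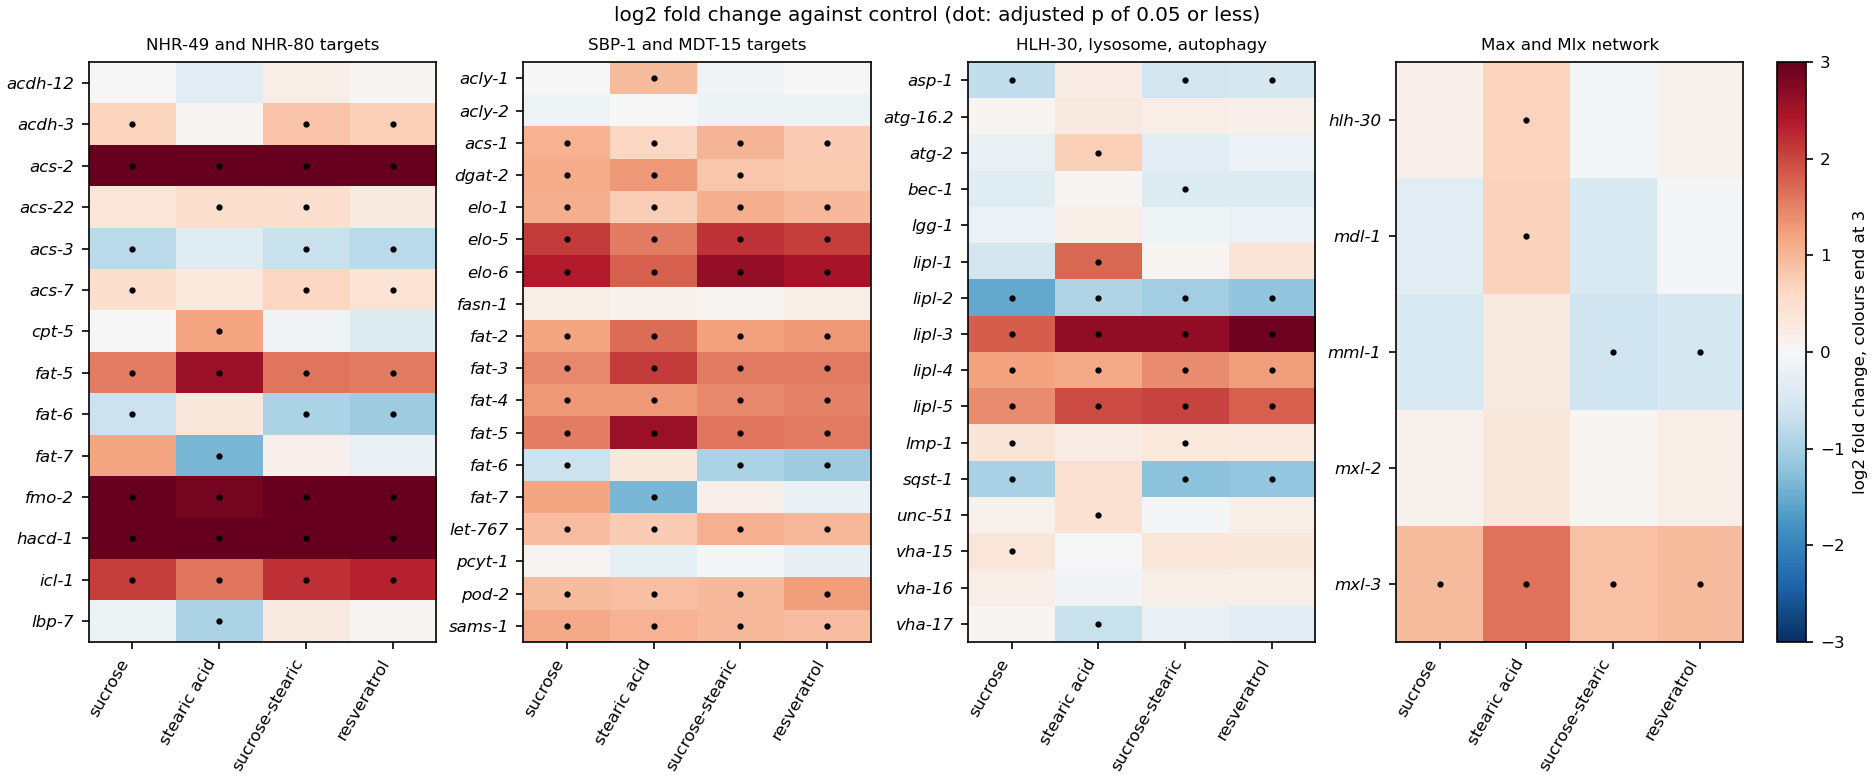
log2 fold change against control (colour, with values past 3 in either direction drawn at the end colour) of the tested genes in the target lists of NHR-49 and NHR-80, of SBP-1 and MDT-15 and of HLH-30, and in the Max and Mlx network, for the 4 treated groups (columns). Dots mark adjusted p of 0.05 or less. In the SBP-1 and MDT-15 list 12 of 18 genes were called higher after sucrose and 13 of 18 after stearic acid. Of all tested genes, 9.63% and 11.6% were called higher there.

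hlh-30 was upregulated in the stearic acid group and called against control in no other. Its stearic acid libraries stood at 91.4, 106 and 95 FPKM. The control libraries were scattered, at 84.8, 65.2 and 56.9 FPKM, and the sucrose libraries stood at 72.4, 72.9 and 81.1 FPKM. The sucrose-stearic acid libraries stood at 78.2, 79.7 and 60 FPKM and the resveratrol libraries at 85.2, 72.9 and 82.0 FPKM. Every stearic acid library lay above the libraries of all other groups, which overlapped each other. The log2 fold change against control was 0.67 ± 0.14 (SE, edgeR adjusted p = 0.00617) after stearic acid, 0.16 after sucrose (adjusted p = 0.473), -0.03 in the sucrose-stearic acid group (adjusted p = 0.906) and 0.14 in the resveratrol group (adjusted p = 0.557).

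The direct comparisons gave the same order for hlh-30. Here 2 of 8 members were called between the sucrose and stearic acid groups, both lower after sucrose, against 24.3% of all genes called and 13.3% called lower. Between the sucrose-stearic acid and stearic acid groups 3 of 8 were called, 1 higher and 2 lower, against 34.1% of all genes, 16% higher and 18.1% lower. hlh-30 was lower by -0.52 ± 0.0964 (SE, edgeR adjusted p = 0.00336) after sucrose than after stearic acid, and by -0.71 ± 0.112 (adjusted p = 0.000433) with both than with stearic acid alone. On log2(FPKM + 1) values the limma change after stearic acid was 0.51 (adjusted p = 0.0903) and that between both compounds and stearic acid alone was -0.43 (adjusted p = 0.0551). The length implied by counts over FPKM differed between groups for hlh-30, at 3110 bases after stearic acid, 2960 in control and 2690 in the sucrose-stearic acid group.

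mml-1 had its lowest group means in the 3 groups that received sucrose and its highest after stearic acid. Its control libraries stood at 36.7, 30.5 and 38.6 FPKM and the stearic acid libraries at 31.6, 41.7 and 49.7 FPKM. The sucrose libraries stood at 22.5, 23 and 29.5 FPKM. The sucrose-stearic acid libraries stood at 23.5, 27.5 and 19.7 FPKM and the resveratrol libraries at 22.4, 24.8 and 27.1 FPKM. No library that received sucrose reached the control range, and control and stearic acid overlapped. Against control, mml-1 was lower by -0.60 ± 0.135 (SE, edgeR adjusted p = 0.0118) in the sucrose-stearic acid group and by -0.53 ± 0.133 (adjusted p = 0.0203) in the resveratrol group. It stood at -0.46 ± 0.15 after sucrose (edgeR adjusted p = 0.0617) and at 0.26 ± 0.168 after stearic acid (adjusted p = 0.272).

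Against the stearic acid group, mml-1 was lower by -0.74 ± 0.174 (SE, edgeR adjusted p = 0.0118) after sucrose and by -0.87 ± 0.155 (adjusted p = 0.00102) with both compounds. The latter call held under every alternative tried. The call between sucrose and stearic acid was lost without the second or the third stearic acid library (edgeR adjusted p = 0.062 and 0.0616). The call in the sucrose-stearic acid group was lost without its first library (adjusted p = 0.0524). The call in the resveratrol group was lost without the first control library (0.0568), and without the first or the second resveratrol library (0.122 and 0.0662), while sucrose against control passed without the third sucrose library (adjusted p = 0.0239). On log2(FPKM + 1) values the limma adjusted p was 0.0616 in the sucrose-stearic acid group, 0.0641 in the resveratrol group and 0.0578 for sucrose against stearic acid, so these calls were lost. Sucrose against control passed with DESeq2 (adjusted p = 0.0255) and in the edgeR fit of all 15 libraries (adjusted p = 0.0489).

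Markers of neurons and of the epidermis set the stearic acid group apart in the same libraries. The summed FPKM of 9 neuron markers ranged from 1030 to 1120 after stearic acid, from 513 to 840 in control and from 647 to 862 with both compounds. Of these 9 genes, 4 were called higher after stearic acid than in control, where 11.6% of all genes were called higher. The summed FPKM of 13 epidermis and moulting markers ranged from 1030 to 1060 after stearic acid and from 1420 to 1700 in control. Of the 13, 7 were called lower, where 11% of all genes were called lower. No marker of either list was at 0 in all libraries of a group. Among 11161 genes, the 3 whose levels were most like hlh-30 over the 15 libraries were tub-2, Y43F8C.3 and rimb-1 (Pearson r of 0.981, 0.969 and 0.967). rimb-1 encodes a protein of the presynaptic active zone. The part of these cell types in the hlh-30 and mml-1 results was not tested.

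The lysosomal lipase genes, which HLH-30 activates, moved in several directions. Of 16 measured genes of the HLH-30, lysosome and autophagy list, 5 were called higher and 3 lower after sucrose, 6 and 2 after stearic acid, 4 and 4 in the sucrose-stearic acid group and 3 and 3 in the resveratrol group. Beside these, 9.63%, 11.6%, 11% and 9.24% of all tested genes were called higher, and 8.78%, 11%, 8.89% and 8.48% lower. lipl-3, lipl-4 and lipl-5 rose in all 4 comparisons. lipl-3 stood at 3.68 ± 0.758 FPKM in control, 12.7 ± 5.58 after sucrose and 24.0 ± 0.89 after stearic acid (SD, n = 3), with log2 fold changes of 1.81 and 2.67 (edgeR adjusted p = 0.00685 and 2.37e-06). lipl-2 fell in all 4, by -1.53 after sucrose and -0.91 after stearic acid (edgeR adjusted p = 0.00275 and 0.000521).

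lipl-1, like hlh-30, was highest after stearic acid. It stood at 149 ± 8.80 FPKM after stearic acid, 43.2 ± 3.04 in control, 29.2 ± 16.6 after sucrose and 44.2 ± 9.80 in the sucrose-stearic acid group (SD, n = 3). Its log2 fold change after stearic acid was 1.73 ± 0.121 (SE, edgeR adjusted p = 1.39e-06), and with both compounds it was lower than with stearic acid alone by -1.66 ± 0.126 (adjusted p = 1.01e-06). The autophagy receptor gene sqst-1 was called lower after sucrose, at -0.98 ± 0.201 (edgeR adjusted p = 0.00895), and stood at 0.45 after stearic acid (adjusted p = 0.0641). Between the sucrose-stearic acid and stearic acid groups 2 of the 16 genes were called higher and 7 lower, against 16% and 18.1% of all genes.

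The remaining members of the Max and Mlx network also peaked after stearic acid. mxl-3, for a Max-like factor known to repress lysosomal lipase genes in fed worms, stood at 86.7 ± 22.2 FPKM in control, 166 ± 33.8 after sucrose, 260 ± 9.34 after stearic acid, 162 ± 32.9 in the sucrose-stearic acid group and 172 ± 29.1 in the resveratrol group (SD, n = 3). Its log2 fold changes against control were 0.96, 1.62, 0.87 and 0.94 (edgeR adjusted p = 0.0118, 3.23e-05, 0.0119 and 0.00702). mdl-1, the Mad-like factor, was called only after stearic acid among the 4 comparisons with control, at 0.69 ± 0.136 (adjusted p = 0.0042). Both were lower with both compounds than with stearic acid alone, mxl-3 by -0.77 ± 0.128 and mdl-1 by -1.16 ± 0.17 (edgeR adjusted p = 0.000602 and 0.000253). The list for this network had 5 measured genes and also counted hlh-30, the TFEB gene. With hlh-30 and mml-1, already given above, 4 of the 5 were called lower in that comparison, where 18.1% of all genes were called lower.

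mxl-2, the partner of MML-1, was called in no comparison. Its control libraries stood at 70.6, 59.3 and 95.9 FPKM and its stearic acid libraries at 92.8, 94.4 and 113.9 FPKM. The sucrose libraries stood at 96.6, 86.7 and 74.8 FPKM, the sucrose-stearic acid libraries at 81.8, 86 and 86.4 FPKM and the resveratrol libraries at 102, 98.3 and 87.5 FPKM. The third control library was the highest of its group, and the control range overlapped the ranges of all other groups. The log2 fold change after stearic acid was 0.34 ± 0.182 (SE, edgeR adjusted p = 0.186), and it was 0.55 (adjusted p = 0.00568) without the third control library. In the resveratrol group it was 0.19 (adjusted p = 0.488), and 0.37 (adjusted p = 0.0458) without that library. Between both compounds and stearic acid alone it was -0.30 (adjusted p = 0.063), and it passed without the second stearic acid library (-0.38, adjusted p = 0.0379) or the third sucrose-stearic acid library (-0.34, adjusted p = 0.0486).

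mdt-15 was the steadiest member. Its libraries stood at 245, 243 and 278 FPKM in control, 265, 253 and 270 after sucrose, and 263, 278 and 299 after stearic acid. They stood at 266, 262 and 251 FPKM in the sucrose-stearic acid group and at 262, 265 and 283 in the resveratrol group. All groups overlapped. The log2 fold change after stearic acid was 0.25 ± 0.107 (SE, edgeR adjusted p = 0.109), with a 95% interval from 0.01 to 0.48, and it passed without the third control library (0.30, adjusted p = 0.047) and in the edgeR fit of all 15 libraries (0.26, adjusted p = 0.0195). In the remaining comparisons with control it lay between 0.06 and 0.08. Between both compounds and stearic acid alone it was -0.20 (adjusted p = 0.0703), and it passed without the first stearic acid library (-0.27, adjusted p = 0.0243) and in the fit of all 15 libraries (-0.21, adjusted p = 0.0462).

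Few other subunits of Mediator were called. Of 18 genes listed under Mediator names, mdt-15 among them, 1 was called higher and 1 lower after sucrose, 1 and 0 after stearic acid, and 1 and 1 in both remaining comparisons with control. All tested genes gave shares of 9.63%, 11.6%, 11% and 9.24% higher and 8.78%, 11%, 8.89% and 8.48% lower. sur-2, the MED23 subunit, rose by 0.79, 0.53, 0.63 and 0.43 on the log2 scale (edgeR adjusted p = 0.00559, 0.0111, 0.00266 and 0.035). mdt-26 was lower by -0.47 after sucrose, -0.52 in the sucrose-stearic acid group and -0.44 in the resveratrol group (edgeR adjusted p = 0.0252, 0.00636 and 0.0305).

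nhr-13 and nhr-66 changed little against control. nhr-13 stood at 8.69, 8.01 and 10.4 FPKM in control, 11.3, 9.92 and 8.79 after sucrose, and 8.42, 8.39 and 8.66 after stearic acid. It stood at 10, 10.4 and 10.9 FPKM in the sucrose-stearic acid group and 10.6, 11.3 and 10.1 in the resveratrol group. The stearic acid libraries were tightly grouped, lay within the control range and were all below those that received both compounds. The latter difference was called, at 0.38 ± 0.122 (SE, edgeR adjusted p = 0.0311), and was lost when any single library of the 6 was left out (adjusted p from 0.0549 to 0.072). nhr-13 was the member with the fewest reads, with group means between 195 and 255 counts.

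nhr-66 stood at 41.8, 42.7 and 51.7 FPKM in control, 45.7, 42.5 and 39.7 after sucrose, and 47.5, 51.4 and 51.2 after stearic acid. It stood at 44.0, 50.3 and 43.9 FPKM in the sucrose-stearic acid group and 48.8, 49.4 and 49.8 in the resveratrol group. The groups overlapped the control in each case. Its log2 fold changes against control lay between -0.07 and 0.15, with 95% intervals reaching from -0.33 to 0.40 over the 4 comparisons.

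The interaction of sucrose and stearic acid tested whether the change with both compounds equalled the sum of the changes with each, on the log2 scale, in the 12 libraries without resveratrol. Of the 8 members 3 were called, all lower than the sum, where 15.6% of all tested genes were called, and 8.59% lay below and 7.05% above the sum. sbp-1 changed by 0.84 and 0.85 with the single compounds, a sum of 1.68, and by 0.83 with both. Its interaction was -0.87 ± 0.159 (SE, edgeR adjusted p = 0.00261). nhr-80 had a sum of 1.2 and a change of 0.57 with both, and an interaction of -0.65 ± 0.157 (edgeR adjusted p = 0.0143).

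For hlh-30 the sum was 0.83, most of it from stearic acid, while with both compounds it stood at -0.03, and its interaction was -0.88 ± 0.197 (SE, edgeR adjusted p = 0.00968). On log2(FPKM + 1) values the limma interaction of hlh-30 was -0.58 (adjusted p = 0.111). The sbp-1 interaction was called under every alternative tried. That of nhr-80 was called in every alternative fit, with adjusted p up to 0.0496, but not at the stricter adjusted p of 0.01. For mml-1 the interaction was -0.42 ± 0.234 and did not pass (edgeR adjusted p = 0.235). mdt-15 and mxl-2 stood at -0.28 and -0.46 (edgeR adjusted p = 0.0846 and 0.15). They passed without the first stearic acid library (mdt-15, -0.34, adjusted p = 0.0433) and without the third control library (mxl-2, -0.64, adjusted p = 0.018).

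**Figure D4:**
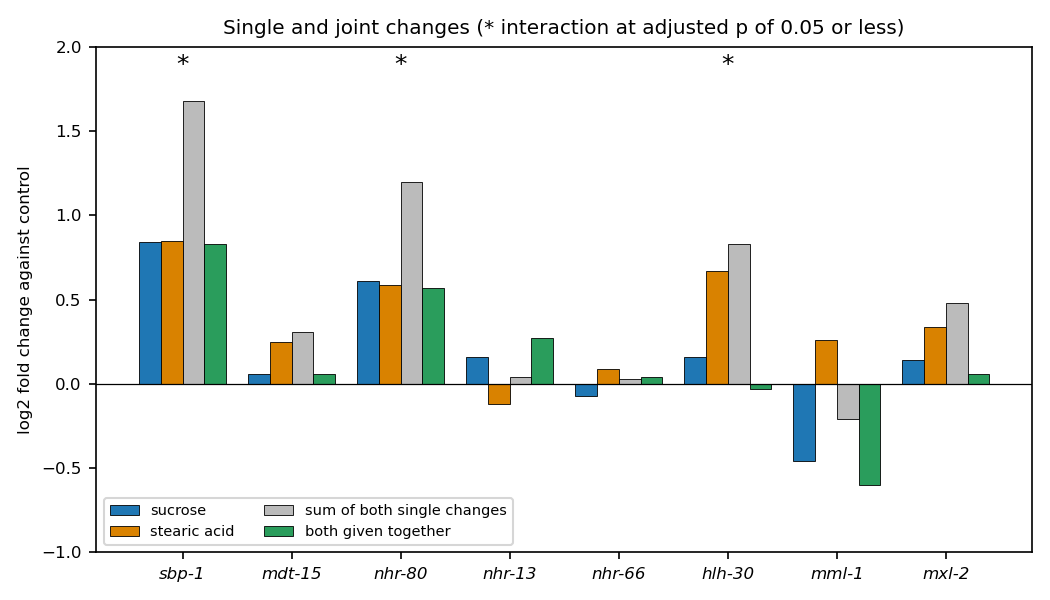
log2 fold change against control of the 8 members (y axis) with sucrose, with stearic acid, as the sum of these single changes and as measured with both compounds together. Stars mark the members whose interaction was called. For sbp-1 the sum was 1.68 and the change with both was 0.83, and for hlh-30 the sum was 0.83 and the change with both was -0.03.

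Of 18 SBP-1 and MDT-15 targets, 14 had a called interaction below the sum and 0 above it, where 8.59% of all genes lay below. The list median was -0.98, beside -0.02 for all genes. The interaction is the change from adding stearic acid to sucrose minus the change after stearic acid against control. The list medians of these changes were -0.02 and 0.93. It is equally the change from adding sucrose to stearic acid minus the change after sucrose against control, with list medians of 0.02 and 1.09. The interaction therefore mostly restates the changes with the single compounds. Of the 14 tested targets of NHR-49 and NHR-80, 7 were below the sum and 2 above. Intestine markers were among the genes that did so, with 4 of 8 below and 1 above.

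Stearic acid added to sucrose left every member uncalled, where 0.445% of all genes were called. None of the 8 reached an unadjusted p of 0.05, which 12.9% of all genes did, and DESeq2 also called none. The largest difference was -0.19 ± 0.109 (SE) for hlh-30 (interval -0.44 to 0.06). Resveratrol added to both compounds likewise left every member uncalled, where 0.0159% of all genes were called, with none at an unadjusted p of 0.05, which 4.39% of all genes reached, and none by DESeq2. The largest difference was 0.19 ± 0.11 for hlh-30, with a 95% interval from -0.06 to 0.43, so changes past 0.43 lay outside the 95% interval for this gene.

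Other regulators of fat metabolism outside the list were mostly not called against control. Of 22 measured genes, 3 were called higher and 1 lower after sucrose, 7 and 0 after stearic acid, 3 and 2 in the sucrose-stearic acid group and 2 and 1 in the resveratrol group. Among all tested genes 9.63%, 11.6%, 11% and 9.24% were called higher there, and 8.78%, 11%, 8.89% and 8.48% lower. The receptor gene nhr-8, whose product acts in cholesterol and bile acid-like steroid balance, rose in all 4 comparisons, by 0.85, 0.55, 0.86 and 0.82 (edgeR adjusted p = 0.00235, 0.014, 0.000423 and 0.00221). skn-1, for the Nrf-related factor of stress and lipid metabolism, was lower by -0.62 after sucrose and higher by 0.47 after stearic acid (edgeR adjusted p = 0.00301 and 0.0138). nhr-62, a receptor gene tied to dietary restriction, rose by 1.04 ± 0.122 (SE) after stearic acid (edgeR adjusted p = 9.83e-05). With both compounds against stearic acid alone, 3 of the 22 were higher and 11 lower, against 16% and 18.1% of all genes. The greatest change was that of skn-1 at -1.23 ± 0.0924 (edgeR adjusted p = 9.73e-07).

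On the WBcel235 genome, 5 members lie on chromosome III. nhr-80 spans III:11985-14869, mxl-2 III:186949-188131, mdt-15 III:5828557-5833751, mml-1 III:7370130-7374731 and sbp-1 III:11428367-11442566. On chromosome IV, hlh-30 spans 4014793-4034951 and nhr-66 spans 8226331-8236602, and nhr-13 lies at V:2192485-2196827. All are on the minus strand except nhr-13. At their edges, nhr-66 overlaps serp-1.2, sbp-1 overlaps idpc-1 and mdt-15 overlaps R12B2.8, each on the opposite strand, and mdt-15 also holds R12B2.13 on its own strand. The use of strand in counting was not given in the sources used here, so reads from these overlaps cannot be assigned with certainty.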

How the data were processed

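Total RNA of whole L4 nematodes was sequenced, and the deposited raw counts per gene and FPKM were used as given. The authors removed ribosomal, adapter and low-quality reads, mapped the rest to WBcel235 with TopHat, and computed FPKM with Cufflinks. The counting tool and its use of strand are not given in the sources used here. The authors' fold changes and FDR columns, and the tables of single comparisons, were not used. The paper calls the samples biological replicates; the labels give only numbers, so the p-values measure the spread between these libraries. The members and gene lists were chosen with earlier results of these data known.

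Counts were fitted per comparison with edgeR 4.0.16 (R 4.3.3), with TMM scaling, filterByExpr and the quasi-likelihood F test, and p-values were Benjamini-Hochberg adjusted over all genes tested (12582 to 13094). The interaction used the 12 libraries without resveratrol. An exact permutation test of 3 against 3 cannot go below 0.1 and was not used. All p-values are two-sided. DESeq2 1.42.0 and limma 3.58.1, the latter on log2(FPKM + 1) and log2(FPKM + 0.1) for genes with a mean FPKM of at least 0.1, were alternatives, with other scalings, filters and thresholds, a fit of all 15 libraries, the replicate block and each library left out. No 2 libraries of a group were alike within sampling noise. The scripts were tested on simulated counts. Rows were named from the annotation text through RefSeq symbols (15296 of 16196), and positions are those of the Ensembl WBcel235 annotation.

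Named genes were all members found, the desaturase, acs-2, lipl, mxl and mdl-1 genes, and from each list in each comparison with control up to 3 genes that rose and 3 that fell most among those called with no overlap of libraries and a mean of at least 10 counts. The tested intestine markers were all named after sucrose. For likeness, the 3 genes with the highest Pearson correlation of log2 CPM over the 15 libraries were taken. Same-numbered libraries deviated together with every correlation over 0.1 (0.122 to 0.361) only in sucrose-stearic acid against control, where the replicate block left the number of members called as it was.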

Additional observations from a re-analysis of the deposited data

Results flagged for a closer look

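The effect of sucrose differed with and without stearic acid for 3 members by the test of the difference itself. The interaction on the log2 scale was -0.65 for nhr-80 (edgeR adjusted p = 0.0143), -0.87 for sbp-1 (adjusted p = 0.00261) and -0.88 for hlh-30 (adjusted p = 0.00968), and 15.6% of all genes tested were called in the same way. These values share the 3 control libraries and are not separate from the changes with the single compounds. Stearic acid added to sucrose gave -0.04 for nhr-80, -0.01 for sbp-1 and -0.19 for hlh-30, beside 0.59, 0.85 and 0.67 after stearic acid against control. Sucrose added to stearic acid gave -0.03, -0.03 and -0.71, beside 0.61, 0.84 and 0.16 after sucrose against control.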

How the results depend on the processing

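Of 1120 alternative values of 72 fold changes, 39 lost the call, 15 gained it and 47 changed sign (before rounding), none of them a call. At an adjusted p of 0.01 the number of members called became 1 for sucrose, sucrose-stearic acid and resveratrol against control and for sucrose against stearic acid. With limma on log2(FPKM + 1) or log2(FPKM + 0.1) it became 1 for stearic acid and resveratrol against control, for sucrose against stearic acid and for both compounds against stearic acid. With the replicate block it became 1 for sucrose against control (nhr-80, edgeR adjusted p = 0.0843) and for resveratrol against control (mml-1, adjusted p = 0.0533), and it moved no other count by over 1.5 times; same-numbered libraries did not deviate together there. Leaving out 1 library gave 1 to 2 members for sucrose, 2 to 5 for stearic acid, 1 to 3 for both compounds and 1 to 3 with resveratrol added, all against control, and 1 to 2 for sucrose against stearic acid. The cause of these changes was not tested, and leaving out a library also leaves fewer libraries in its group.

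The values that changed sign were small. Leaving out 1 library gave log2 fold changes of -0.11 to 0 for nhr-66 after sucrose; -0.16 to 0.12 for hlh-30, -0.07 to 0.25 for mxl-2 and -0.03 to 0.12 for nhr-66 with both compounds against control; and -0.02 to 0.28 for hlh-30 in the resveratrol group. For sucrose against stearic acid it gave -0.15 to 0.07 for sbp-1 and -0.07 to 0.09 for nhr-80. For both compounds against sucrose it gave -0.08 to 0.11 for sbp-1, -0.03 to 0.02 for mdt-15 and -0.1 to 0.03 for nhr-80, and against stearic acid -0.07 to 0.02 for nhr-80 and -0.06 to 0 for sbp-1. For added resveratrol it gave -0.03 to 0.06 for nhr-13, -0.01 to 0.2 for mml-1 and -0.18 to 0.04 for nhr-80, and for the interaction of nhr-66 it gave -0.09 to 0.05. With limma on FPKM, hlh-30 was 0.08 with both compounds against control, sbp-1 was 0.01 for sucrose against stearic acid and 0.03 for both compounds against sucrose, nhr-80 was 0.01 for the latter, and against stearic acid nhr-80 was 0.05 and 0.06 and sbp-1 0.04 and 0.05 at the larger and the smaller offset. Upper-quartile scaling gave 0.02 for sbp-1 and mdt-15 against sucrose, 0.02 for nhr-80 and sbp-1 against stearic acid and 0.04 for the interaction of nhr-66. The replicate block gave 0 for sbp-1 against sucrose.

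With 3 libraries a group, changes as small as those of nhr-66 and nhr-13 lie within the intervals, and lack of a call does not show lack of change.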

Other observations

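The genes most like the other members over the 15 libraries, among 11161 compared, were ucr-2.1, bca-1 and Y105C5A.24 for sbp-1 (Pearson r of 0.978, 0.974 and 0.968), nurf-1, oga-1 and nud-2 for mml-1 (0.977, 0.975 and 0.973), and nhr-179, ZK792.4 and cyp-33C4 for nhr-80 (0.944, 0.942 and 0.94). ucr-2.1 encodes a core subunit of mitochondrial complex III, nurf-1 a subunit of the NURF chromatin remodeller and oga-1 the enzyme that removes O-GlcNAc from proteins. The closest genes were hsp-6, a mitochondrial chaperone gene, for mdt-15 (0.945), T20B12.7 for nhr-13 (0.937), F28H6.4 for mxl-2 (0.886) and mep-1 for nhr-66 (0.84). These libraries share groups, scaling and depth, and the correlations are given as a description.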
